A study of Mus musculus with 56 samples.

Results

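Regulatory T cells (Tregs) of visceral adipose tissue (VAT) were compared with Tregs of the spleen at week 0, before any diet was given, across every gene with enough counts to test. The libraries were chosen by their titles: 3 VAT libraries and 3 spleen libraries, 6 of the 56 in the series. All 6 came from C57BL/6 mice of genotype vTreg53 Tg+, which carry a T cell receptor transgene, so spleen cells share it with VAT cells. Every value describes Tregs sorted as positive for that receptor, though transcripts of other receptor segments were also counted, as given below. The design text calls the sampled animals recipients without saying what they received, so whether the cells arose in these mice or were transferred into them is not stated, and the age at week 0 is not given apart from the age at which diets began. Cells positive for the transgenic clonotype were sorted to 1000 cells per library. At an age of 12 weeks other animals were moved to diets that the labels call NCD or HFD and were sampled 2, 4, 8 or 16 weeks later. Of those, 11 VAT and 11 spleen libraries of the NCD groups are used below as a second set of libraries. The HFD libraries enter only an alternative fit of all 51 mouse libraries, and the culture libraries are not used. Tissue was given by the titles, since the tissue tag of the labels reads visceral adipose tissue for the spleen libraries as well. The labels do not tell whether each replicate was a different mouse, and the p-values cover the spread among the libraries alone.

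Tregs are the CD4 T cells whose identity depends on the transcription factor Foxp3 and whose task is to hold immune responses in check. Those of visceral fat are a specialised population known to depend on the lipid-sensing nuclear receptor PPARγ, to carry the IL-33 receptor ST2, and to restrain inflammation and support insulin sensitivity in the fat pad. Splenic Tregs are mostly of a resting or central type that recirculates between blood and lymphoid organs through CCR7 and S1PR1.

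Total counts were 4144936 to 5639111 per VAT library and 3378029 to 4471889 per spleen library. The floor of detection, set at 3 counts, stood for 0.570 to 0.777 CPM (read counts scaled to a common library size) in VAT and 0.633 to 0.814 CPM in spleen, for counting error only. The titles were checked with Pparg, at 85.5 to 128 CPM in VAT and 0 to 3.17 CPM in spleen. Genes that define macrophages, granulocytes, adipocytes, stromal cells and red cells were low in both tissues. The summed level of the list was 4.66 to 7.63 CPM in VAT against 4.22 to 25.5 CPM in spleen for 13 macrophage genes, and 1.04 to 3.05 CPM in VAT against 0.435 to 0.814 CPM in spleen for 9 adipocyte genes. Adgre1 and Fcgr1 of the macrophage list and Cidec and Retn of the adipocyte list had no count in any of the 6 libraries. For 9 genes of type 2 innate lymphoid cells the sum was 185 to 237 CPM in VAT and 234 to 305 CPM in spleen. Of 2 tested members 0 were higher and 1, Ly6a, was lower, a call lost under some alternatives (edgeR adjusted p up to 0.347). For 12 B cell genes the sum was 1307 to 2651 CPM in VAT and 1471 to 1621 CPM in spleen, nearly all of it Ighm. Among the 6 tested B cell genes 0 were higher in VAT, 4 were not called and 2 were lower. The lower ones were Cd22 (-3.11 ± 0.69, edgeR adjusted p = 0.00191) and Cd79b (-0.91 ± 0.32, adjusted p = 0.0306). The call of Cd79b was lost under some alternatives (edgeR adjusted p up to 0.137). The sum was 67.1 to 96.1 CPM in VAT and 74.5 to 92.4 CPM in spleen for 11 NK, CD8 and γδ T cell genes, 19.2 to 24.7 CPM in VAT and 9.29 to 27.1 CPM in spleen for 9 dendritic cell genes, and 92.9 to 118 CPM in VAT and 268 to 362 CPM in spleen for 9 endothelial genes, of which only Pecam1, also a gene of T cells, had enough counts to test. Of 7 tested genes of the NK, CD8 and γδ T cell list 3 were higher in VAT and 2 lower. Trdc, the constant segment of the δ chain, had 49.1, 39.7 and 30.6 CPM in VAT and 14.1, 10.2 and 9.92 CPM in spleen (1.81 ± 0.25, edgeR adjusted p = 3.33e-05). The NK receptor gene Ncr1 had 66 counts in VAT and none in spleen, and Gzma, the gene of granzyme A, 49 counts in VAT and 1 in spleen. Trgc1 (-3.55 ± 0.43) and Prf1, the perforin gene (-1.44 ± 0.37), were lower. Xcr1, a chemokine receptor gene of dendritic cells, had 14.5, 14.1 and 13.5 CPM in VAT and 1.36, 0 and 0 CPM in spleen (5.06 ± 0.71, adjusted p = 3.27e-05), while Clec9a of the same list had no count in the week 0 libraries. The part of such cells in the results was not tested. Mitochondrially encoded genes took 0.958 to 1.06% of counts in VAT and 1.34 to 1.5% in spleen, and ribosomal protein genes took 1.69 to 2.02% in VAT and 3.21 to 3.31% in spleen.

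The tissues differed in a large share of the genes measured. Of 12124 genes tested, 4982 were called different (41.1%): 2726 were higher in VAT (22.5%) and 2256 were lower (18.6%) at an adjusted p under 0.05 in edgeR's quasi-likelihood test, an overdispersed count model fitted to all genes. At least 2-fold differences were called for 1607 genes higher (13.3%) and 1155 genes lower (9.53%), at least 4-fold ones for 730 and 442, and at least 16-fold ones for 179 and 65. The 3 VAT libraries all lay above the 3 spleen libraries for 3394 genes (28%) and all below them for 3050 (25.2%). The median log2 fold change over all tested genes was -0.02, with positive values meaning higher in VAT here and throughout. Counts called in each gene list below stand against the shares of all genes, 22.5% higher and 18.6% lower. The balance of directions depends on the scaling: 54.7% of called genes were higher in VAT with TMM scaling, 45.1% with upper quartile scaling (median of all genes -0.12) and 37% with library totals alone (median -0.22, 2069 higher and 3516 lower). In bulk samples a smaller share of cells with a transcript and less of it per cell cannot be told apart.

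**Figure D1:**
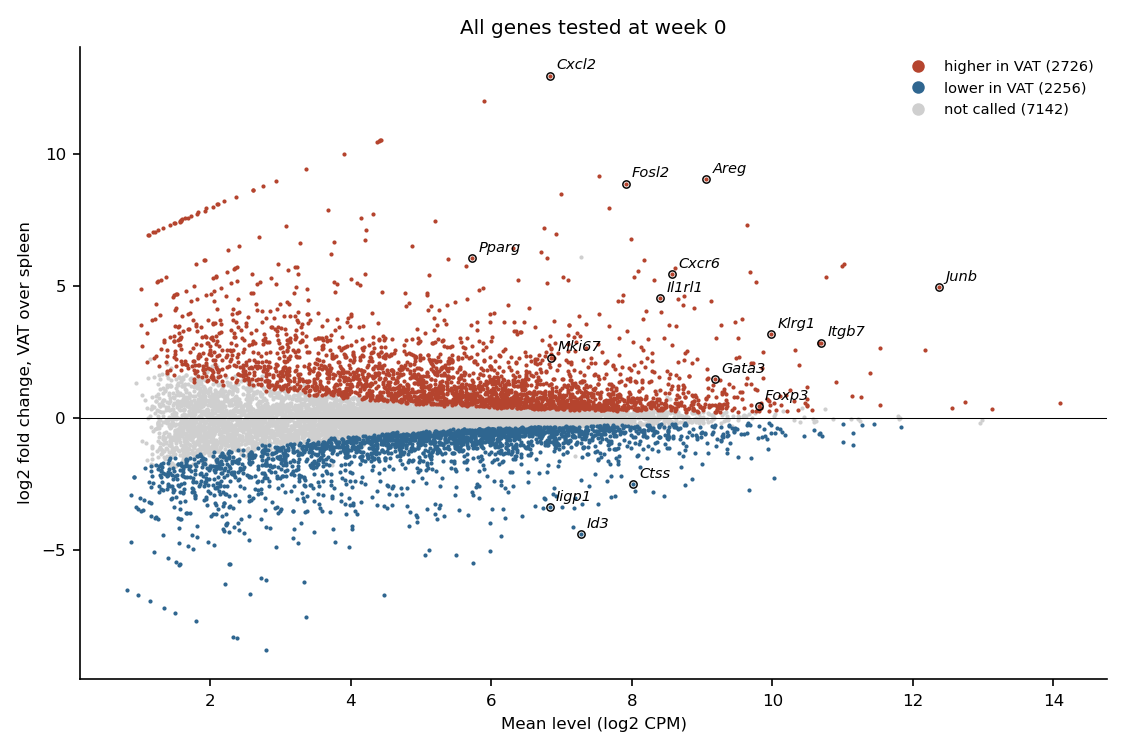
Each point is 1 of the 12124 tested genes, with its mean level over the 6 libraries (log2 CPM) on the x axis and its log2 fold change, VAT over spleen, on the y axis. Red points (2726) were higher in VAT, blue points (2256) lower and grey points (7142) not called at an adjusted p under 0.05; the straight streaks of points at the left edge and Cxcl2 have no count in 1 tissue, where the fitted value depends on how zeros are treated.

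The genes that define fat Tregs were higher in VAT as a group. Of the 18 genes listed for this programme 17 were tested, and all 17 were higher (list median 3.16), against 22.5% of all genes tested. The list holds genes already known from fat Tregs and was chosen with earlier results of these data known. Its count is therefore a description and not a test, and Pparg also served above to check the titles. Il1rl1, the gene of the IL-33 receptor ST2 (chr1:40429570-40465415 in mm10), had 684, 623 and 641 CPM in VAT, against 30.1, 28.1 and 26 CPM in spleen, a log2 fold change of 4.53 ± 0.11 (SE; edgeR adjusted p = 2.53e-14). The VAT libraries were close together and far above all spleen libraries. Areg, which encodes the tissue-repair factor amphiregulin (chr5:91139599-91148432), had 1047, 942 and 1214 CPM in VAT, against 1.09, 1.52 and 3.17 CPM in spleen (9.05 ± 0.20, adjusted p = 2.86e-14). Pparg (chr6:115360951-115490399) had 97.9, 85.5 and 128 CPM in VAT and 1.36, 0 and 3.17 CPM in spleen, where 1 library had no count (6.05 ± 0.47, adjusted p = 3.08e-06). For both genes spleen was near the floor, so the fold changes rest on few spleen counts, 26 for Areg and 20 for Pparg over 3 libraries.

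Other receptors and secreted products of the programme were higher as well. Klrg1, an inhibitory receptor of matured T cells, had 1900.0, 1724 and 1821 CPM in VAT and 266, 131 and 215 CPM in spleen (3.16 ± 0.25, adjusted p = 9.81e-05). Ccr2, a receptor for monocyte-attracting chemokines, had 1401, 1093 and 1409 CPM in VAT and 194, 110.2 and 172 CPM in spleen (3.04 ± 0.21, adjusted p = 1.01e-05). In both genes spleen library 2 was the lowest of its group, and the groups did not overlap. Cxcr6, the receptor for CXCL16, averaged 743 ± 43.7 CPM in VAT and 17 ± 2.50 CPM in spleen (SD, n = 3 each), a change of 5.44 ± 0.13, with edgeR adjusted p = 1.88e-14. Il10, the anti-inflammatory cytokine, had 327, 209 and 263 CPM in VAT and 7.06, 0.653 and 13.3 CPM in spleen (5.23 ± 0.64, adjusted p = 0.00155), a spleen spread from the floor upwards. Ctsh, a cathepsin, and Fgl2, which encodes a secreted suppressive protein, changed by 6.06 ± 0.30 and 3.73 ± 0.15.

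Gata3, Irf4 and Batf, transcription factors of the programme, differed less than most of its members. Gata3, which directs type 2 responses and maintains tissue Tregs, had 953, 779 and 843 CPM in VAT and 325, 256 and 351 CPM in spleen (1.47 ± 0.11, adjusted p = 6.63e-08). Batf, which cooperates with Irf4 in effector Tregs, was the smallest change of the 17 at 0.74 ± 0.12 (adjusted p = 0.000104), and Irf4 itself changed by 1.76 ± 0.16. Cd36, a fatty acid transporter, was below the level needed for testing at week 0: it had 1.53, 7.03 and 2.07 CPM in VAT and 0.271, 0.218 and 0.633 CPM in spleen. All 3 VAT values lay above all 3 spleen values, and no spleen value was above the floor.

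**Figure D2:**
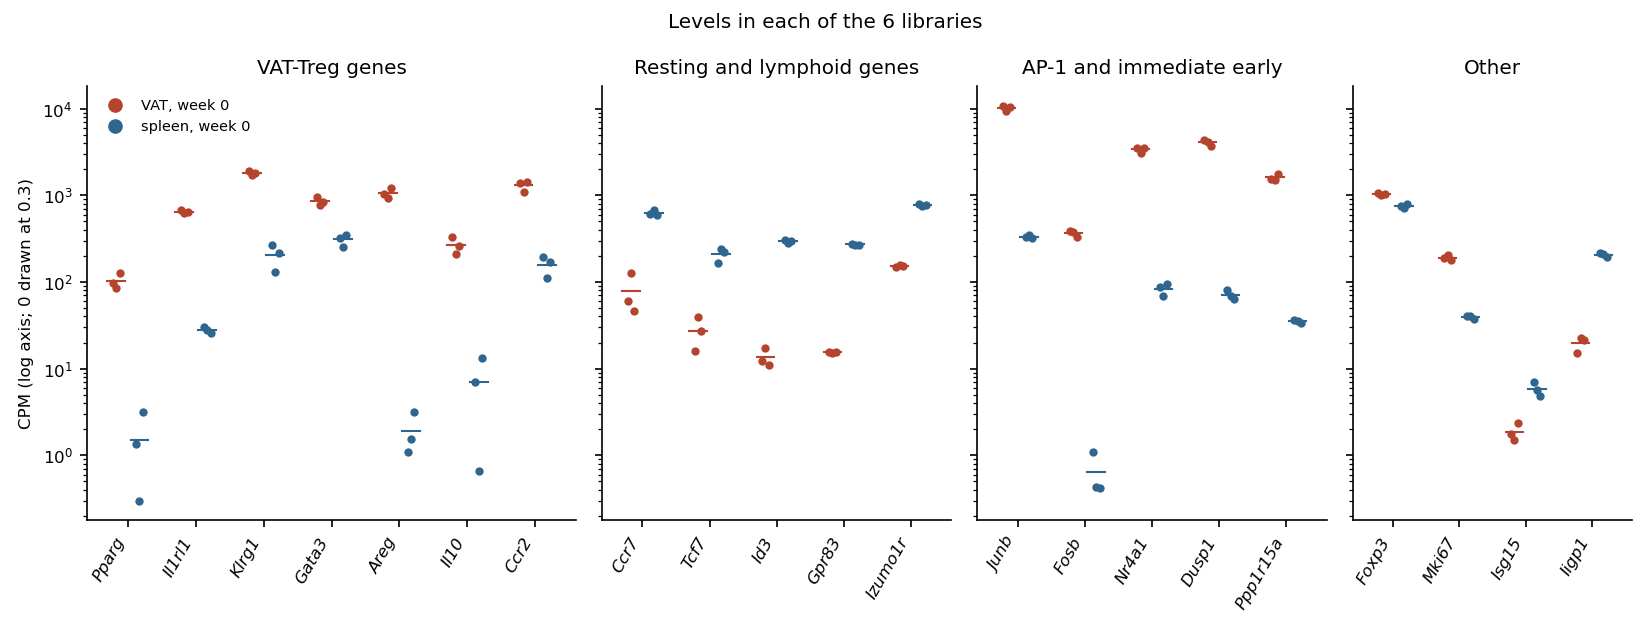
CPM (log axis) of 21 named genes in each library, with the 3 VAT libraries in red left of the 3 spleen libraries in blue and a line at the mean of each group; a value of 0 is drawn at 0.3. VAT and spleen do not overlap in any of these genes, from Areg at 942 to 1214 CPM in VAT and 1.09 to 3.17 CPM in spleen to Foxp3 at 1001 to 1059 CPM in VAT and 722 to 804 CPM in spleen. Absence of overlap was a condition for naming some of them. Among all genes tested VAT lay wholly above spleen in 28% and wholly below in 25.2%.

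Genes of resting and recirculating T cells were lower in VAT. Of 18 tested members 15 were lower, each at least 2-fold, and 1 was higher (list median -2.72; 18.6% of all genes tested were lower). Ccr7, the chemokine receptor that draws T cells into lymph nodes, had 60.3, 128 and 46.4 CPM in VAT and 612, 668 and 598 CPM in spleen (-2.98 ± 0.40, adjusted p = 0.00214). VAT library 2 was above the other VAT libraries in Ccr7, but far below every spleen library. Tcf7, a transcription factor of naive and memory T cells, followed with 16, 38.9 and 27.2 CPM in VAT and 165, 239 and 219 CPM in spleen (-2.90 ± 0.27), again with VAT library 2 the highest of its group. The egress receptor gene S1pr1 (-1.65 ± 0.13), the transcription factor genes Lef1 (-1.74 ± 0.12), Bach2 (-3.65 ± 0.27) and Foxp1 (-1.86 ± 0.10) and the IL-6 receptor gene Il6ra (-2.19 ± 0.11) were lower as well. Il7r, the IL-7 receptor gene, went the other way at 618 ± 40.8 CPM in VAT and 341 ± 66.1 CPM in spleen (0.86 ± 0.12, adjusted p = 3.56e-05). Klf2 (-0.49 ± 0.32) and Myb (-0.61 ± 0.35) did not pass the test.

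Among the lowered genes with the smallest p-values, Il6ra belonged to this group and Gpr83 and Izumo1r to the Treg core genes given below. Gpr83, a G protein-coupled receptor known from Tregs (chr9:14860210-14870789), had 15.8, 15 and 15.5 CPM in VAT and 277, 267 and 269 CPM in spleen (-4.13 ± 0.13, adjusted p = 9.01e-13). Id3, an inhibitor of E protein transcription factors (chr4:136143497-136145755), had 12.2, 17.3 and 11.1 CPM in VAT and 304, 279.6 and 301 CPM in spleen (-4.42 ± 0.16, adjusted p = 4.66e-12). Izumo1r, which encodes the Treg surface marker folate receptor 4, had 149.6, 156 and 153 CPM in VAT and 790.1, 749 and 779.7 CPM in spleen (-2.34 ± 0.09, adjusted p = 6.17e-12). All 3 showed tight replicates within both tissues. The other 9 were Ms4a6b (-2.30), Trib2 (-2.79), Nsg2 (-4.48), Gpr18 (-3.73), Ctss (-2.53), Ift80 (-2.81), Tbc1d4 (-3.43), Iigp1 (-3.38) and Il6ra. Ctss encodes the lysosomal protease cathepsin S, Tbc1d4 a regulator of vesicle traffic and Iigp1 an interferon-induced GTPase.

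Treg identity genes split. Foxp3 itself was higher in VAT by a small amount and without overlap, with 1059, 1001 and 1043 CPM in VAT and 747, 722 and 804 CPM in spleen (0.45 ± 0.08, adjusted p = 0.000247). Of 18 tested core genes 10 were higher and 6 lower (median 0.41), against 22.5% and 18.6% of all genes tested. Ctla4, the inhibitory receptor that strips costimulatory ligands from antigen-presenting cells, had 2248, 2184 and 2147 CPM in VAT and 406, 337 and 374 CPM in spleen (2.56 ± 0.09, adjusted p = 1.94e-12). Tnfrsf4, which encodes the costimulatory receptor OX40 (1.27 ± 0.11), and Capg, an actin-capping protein gene (1.49 ± 0.08), were higher too. On the other side stood Nt5e, the adenosine-producing enzyme CD73, with 75.3, 81.5 and 41.2 CPM in VAT and 293, 304 and 269 CPM in spleen (-2.12 ± 0.20, adjusted p = 5.15e-06), with Gpr83 and Izumo1r. Ikzf2, the gene of the Treg factor Helios, did not pass at 1458, 1489.9 and 1690.4 CPM in VAT and 1654, 971 and 972 CPM in spleen. It was called higher without spleen library 1, which lay within the VAT range (edgeR adjusted p = 5.91e-06).

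Suppressive and repair mediators were mostly higher in VAT. Of 16 tested members 13 were higher and 3 lower (median 1.5), against 22.5% and 18.6% of all genes tested. Among the higher ones were Areg, Il10 and Fgl2, described above. Furin, a protease that activates TGF-β, averaged 56.5 ± 7.77 CPM in VAT and 12.5 ± 3.36 CPM in spleen (SD, n = 3 each; 2.16 ± 0.23, edgeR adjusted p = 1.98e-06). Gzmb, the cytotoxic protease granzyme B, had 1168, 1141 and 1094 CPM in VAT and 110.2, 57.5 and 128 CPM in spleen (3.52 ± 0.29, adjusted p = 0.000162). The lower members were Nt5e, Lrrc32 and Lag3. Lrrc32, which holds latent TGF-β on the Treg surface, had 87, 139 and 82.1 CPM in VAT and 155, 173 and 252 CPM in spleen (-0.91 ± 0.23, adjusted p = 0.0106), a call lost without VAT library 1 (adjusted p = 0.0548). Lag3, an inhibitory receptor gene, changed by -1.03 ± 0.18, and its adjusted p was 0.0602 when all 51 mouse libraries entered the fit and 0.0528 with 28.

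Among 24 tested transcription factors of T cell lineages 15 were higher and 7 lower (median 1.29), and several partners moved apart. Id2, the relative of Id3 in effector cells, had 419, 350.1 and 353 CPM in VAT and 39.9, 27.2 and 35 CPM in spleen (3.46 ± 0.14, adjusted p = 2.47e-11), the reverse of Id3. Tbx21, the gene of the type 1 factor T-bet, had 58.8, 71.4 and 62.4 CPM in VAT and 2.17, 3.92 and 4.85 CPM in spleen (4.10 ± 0.26, adjusted p = 5.12e-09), whereas Bcl6, the follicular helper factor, had 3.56, 2.28 and 2.33 CPM in VAT and 14.9, 12.8 and 10.3 CPM in spleen (-2.22 ± 0.40, adjusted p = 0.000332). Rora (3.03 ± 0.18) and Nfil3 (3.63 ± 0.18), both also part of the fat Treg programme, were higher. Zeb2, a factor of terminal effector cells, had 340 counts in VAT and 3 in spleen, a CPM ratio of 113 (95% counting interval 38.3 to 551). Of 7 tested helper T cell genes 6 were higher and 1 lower. Tnf, the gene of an inflammatory cytokine, averaged 119 ± 5.87 CPM in VAT and 51.1 ± 1.25 CPM in spleen (SD, n = 3 each; 1.21 ± 0.13, edgeR adjusted p = 2.52e-06). Il4, Il13 and Il17a were too low to test, at no more than 1.78 CPM in any library.

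The receptors through which the cells sense chemokines changed in both directions. Of 19 tested chemokine and migration receptors 12 were higher, 11 of them at least 2-fold, and 5 were lower (median 1.48). The shares of all genes tested were 22.5% higher and 18.6% lower. Ccr1, a receptor for inflammatory chemokines, had 255, 202 and 266 CPM in VAT and 1.90, 1.09 and 2.74 CPM in spleen (6.95 ± 0.23, adjusted p = 1.77e-12). Ccr8, a receptor typical of tissue Tregs, had 209, 205 and 178 CPM in VAT and 34.2, 26.3 and 34.4 CPM in spleen (2.64 ± 0.15, adjusted p = 7.96e-10). At the other end stood Cxcr5, the receptor that guides cells into B cell follicles, with 2.54, 5.51 and 2.33 CPM in VAT and 107, 136 and 122 CPM in spleen (-5.06 ± 0.25, adjusted p = 2.21e-10). Gpr183, an oxysterol receptor of lymphoid tissue positioning, was lower too (-1.37 ± 0.14), as were Ccr7 and S1pr1. Cxcr3 differed least among the higher ones (0.56 ± 0.17, with an adjusted p of 0.427 in the fit of all 51 mouse libraries), and S1pr4 (0.12 ± 0.10) did not pass the test.

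Adhesion molecules were higher in 11 of 17 tested members and lower in 3 (median 0.82), against 22.5% and 18.6% of all genes tested. Itgav, the integrin αv subunit that takes part in TGF-β activation, had 508, 543 and 547 CPM in VAT and 49.1, 32 and 38.4 CPM in spleen (3.75 ± 0.14, adjusted p = 5.41e-12). Cd44, the hyaluronan receptor of activated T cells, had 1309, 1157 and 1220.0 CPM in VAT and 287, 240.2 and 231 CPM in spleen (2.28 ± 0.10, adjusted p = 3.82e-11). Icam1, an integrin ligand, was higher by 2.51 ± 0.10, and Itgb7, the integrin β7 subunit, had 3140.2, 2997 and 2603 CPM in VAT and 306, 391 and 516 CPM in spleen (2.85 ± 0.18, adjusted p = 4.55e-06). Itga6 (-1.08 ± 0.15) and Icam2 (-1.05 ± 0.16) were among the lower ones. Itgae, the tissue-retention integrin CD103, did not pass at 226 ± 58.7 CPM in VAT and 185 ± 48.5 CPM in spleen (SD, n = 3 each), and came just under the threshold without VAT library 3 or spleen library 1 (edgeR adjusted p = 0.0476 and 0.0489).

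Inhibitory and costimulatory receptors did not move as a block, with 11 of 19 tested members higher and 6 lower (median 0.93). The shares of all genes tested were 22.5% higher and 18.6% lower. Pdcd1, the gene of the inhibitory receptor PD-1, had 545, 525 and 457 CPM in VAT and 105, 121 and 122 CPM in spleen (2.13 ± 0.11, adjusted p = 2.12e-10). Icos, a costimulatory receptor needed by effector Tregs, changed by 1.51 ± 0.09. Cd96, an adhesion and inhibitory receptor, had 22.4, 38.9 and 24.9 CPM in VAT and 285, 287 and 278 CPM in spleen (-3.28 ± 0.17, adjusted p = 5.39e-10). Btla, another inhibitory receptor, changed by -2.09 ± 0.15, and Cd27, a receptor lost by differentiated T cells, by -0.97 ± 0.09.

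Cytokine receptors were higher in 12 of 26 tested members and lower in 7, with a median of 0.27 that was 0.06 with library totals alone. The shares of all genes tested were 22.5% higher and 18.6% lower. Beside Il1rl1, the IL-18 receptor subunit gene Il18rap (3.28 ± 0.17) and the decoy IL-1 receptor gene Il1r2, with 107, 89.7 and 90.1 CPM in VAT and 8.96, 5.01 and 11.2 CPM in spleen (3.51 ± 0.24, adjusted p = 8.52e-09), were higher. The chains of the interferon-γ receptor went opposite ways. Ifngr1 had 2021, 2068 and 2319 CPM in VAT and 554, 510.1 and 528 CPM in spleen (2.01 ± 0.08, adjusted p = 2.08e-11), and Ifngr2 had 27.7, 35.9 and 29 CPM in VAT and 88.5, 83.2 and 81.7 CPM in spleen (-1.44 ± 0.16, adjusted p = 3.16e-06). Both parts of the IL-6 receptor, Il6ra and Il6st (-1.52 ± 0.13), were lower. The IL-2 receptor α chain gene Il2ra was higher (1.25 ± 0.12), while Il2rb (0.07 ± 0.08) and Il2rg (0.17 ± 0.09) did not pass. In the list of IL-2 and STAT5 signalling 7 of 17 were higher and 3 lower (median 0.30), the lower ones at about the share of all genes. Its responders Cish (1.84 ± 0.10) and Pim1 (2.54 ± 0.15) were higher, and Lta, the lymphotoxin gene, was lower (-3.56 ± 0.25).

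**Figure D3:**
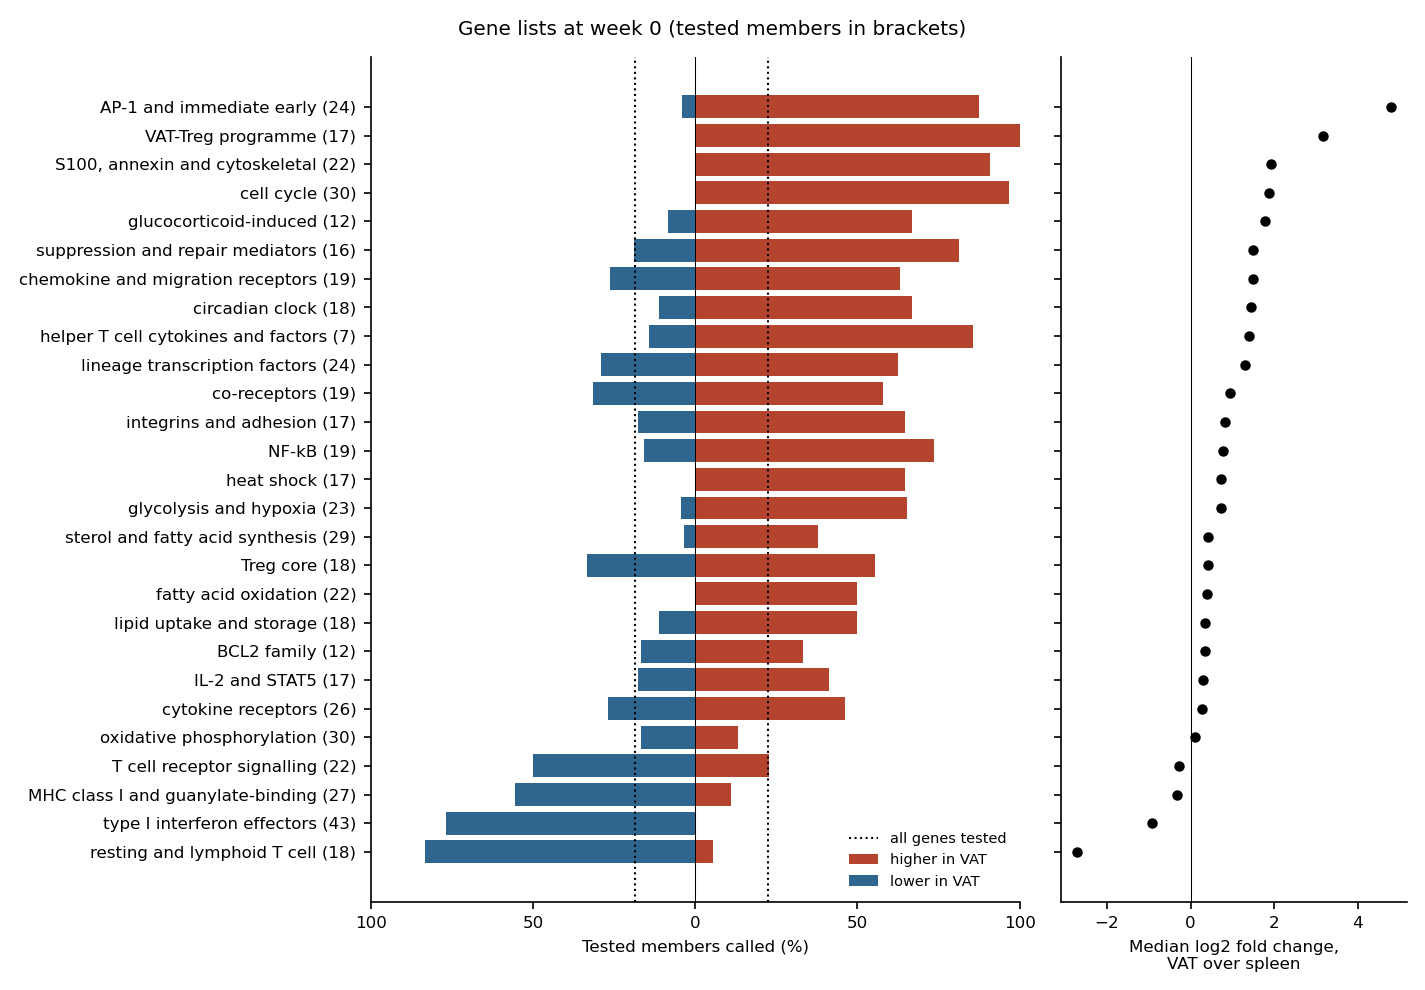
Left, the share of tested members of each of 27 gene lists called higher (red, to the right) or lower (blue, to the left) in VAT at an adjusted p under 0.05, with dotted lines at the shares of all genes tested (22.5% higher and 18.6% lower); right, the list's median log2 fold change, VAT over spleen. Medians run from -2.72 for resting and lymphoid genes to 4.80 for AP-1 and immediate early genes.

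The largest shift of any list was in immediate early genes, which T cells and many other cells switch on within minutes of stimulation or stress. The state of the cells in the tissue and their handling before sorting cannot be told apart in this design. The part of either was not tested. Of 24 tested members 21 were higher, each at least 2-fold, and 1 was lower (median 4.80). Junb, a subunit of the AP-1 transcription factor (chr8:84974484-84978718), had 10789, 9485 and 10457 CPM in VAT and 331, 347 and 325 CPM in spleen (4.94 ± 0.08, adjusted p = 1.13e-15), the smallest p of all genes. Ppp1r15a, which restarts protein synthesis after stress, had 1556, 1517 and 1762 CPM in VAT and 36.6, 35.7 and 34 CPM in spleen (5.51 ± 0.10, adjusted p = 2.44e-15). Dusp1, a phosphatase that ends MAP kinase signals, had 4330.4, 4115 and 3749 CPM in VAT and 81.7, 69 and 63.1 CPM in spleen (5.84 ± 0.11, adjusted p = 2.44e-15). The 6 libraries fell into 2 narrow bands in each of the 3 genes. Nr4a1, a nuclear receptor gene induced by T cell receptor signals, had 3522, 3097 and 3538 CPM in VAT and 88.5, 68.6 and 94.3 CPM in spleen (5.34 ± 0.12, adjusted p = 2.33e-14). Fosb and Fosl2, further AP-1 subunits, were near the floor in spleen: Fosb had 391, 379.9 and 332 CPM in VAT and 1.09, 0.435 and 0.422 CPM in spleen, and Fosl2 473, 444 and 522 CPM in VAT and 1.09, 0.653 and 1.27 CPM in spleen. Atf3, a stress-induced partner of AP-1, had 155, 107 and 93 CPM in VAT and no count in any spleen library, at least 169-fold higher against a floor of 3 counts per library.

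Egr2, also a T cell receptor target, was the exception with 12, 18.6 and 12.7 CPM in VAT and 56.7, 62.7 and 49.2 CPM in spleen (-1.95 ± 0.22, adjusted p = 3.55e-06), while Egr1 was higher (1.71 ± 0.21) and Egr3 (0.22 ± 0.29) and Ier5 (0.23 ± 0.29) did not pass the test. The summed immediate early genes took 2.45 to 2.59% of counts in VAT and 0.151 to 0.159% in spleen. Heat shock genes took 0.673 to 0.820% in VAT and 0.431 to 0.562% in spleen. With both lists left out of the counts, 2672 genes were called higher and 2296 lower, and beyond that the part of this shift in other results was not tested.

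Promoters of this list are shown because its members moved together. RefSeq promoters (GRCm38.p6, 250 bases before to 50 after the gene start) were found for 21 of the 25 members. The cyclic AMP response element TGACGTCA, searched on both strands, was in 3 of the 21 (14.3%), against 2.03% of 27025 genes with a promoter in the table. The AP-1 motif TGANTCA was in none of them and in 8.97% of all. The members were Ppp1r15a, Dusp1 and Btg2. The promoters of Ppp1r15a (chr7:45526219-45526518, minus strand) and Dusp1 (chr17:26508423-26508722, minus strand), which had the smallest p-values of the 3, read 5′ to 3′ as follows, with the element in capitals.
Ppp1r15a: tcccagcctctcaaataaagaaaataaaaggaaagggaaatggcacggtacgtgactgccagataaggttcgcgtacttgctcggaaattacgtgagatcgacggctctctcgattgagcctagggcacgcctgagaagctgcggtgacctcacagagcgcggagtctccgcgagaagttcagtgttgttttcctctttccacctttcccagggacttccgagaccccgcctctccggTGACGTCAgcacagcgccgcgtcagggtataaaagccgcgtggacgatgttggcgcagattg
Dusp1: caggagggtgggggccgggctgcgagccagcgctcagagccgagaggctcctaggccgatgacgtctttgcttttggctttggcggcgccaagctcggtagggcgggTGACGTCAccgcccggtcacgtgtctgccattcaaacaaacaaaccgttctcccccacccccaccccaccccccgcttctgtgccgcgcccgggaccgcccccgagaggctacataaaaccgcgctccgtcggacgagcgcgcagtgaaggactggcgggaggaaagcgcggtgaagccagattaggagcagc
The element lies 12 to 5 bases before the start in Ppp1r15a and 143 to 136 bases before it in Dusp1. A match is a description of the letters and says nothing of binding.

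Heat shock and NF-kB genes, which respond to protein damage and to inflammatory and antigen receptor signals, were higher by less. In the heat shock list 11 of 17 tested members were higher and the other 6 not called (median 0.73). The called ones included Hsp90aa1, a chaperone gene with 177, 193 and 151 CPM in VAT and 63.8, 63.1 and 61.8 CPM in spleen (1.47 ± 0.13, adjusted p = 2.33e-07), the co-chaperone gene Dnajb1 (1.46 ± 0.16) and Hspa5 of the endoplasmic reticulum (0.67 ± 0.09). Hsph1, another chaperone gene, had 263, 204 and 154 CPM in VAT and 115, 201 and 58 CPM in spleen, with spleen library 2 inside the VAT range, and did not pass (adjusted p = 0.280, or 0.0272 without that library). Hspa1a had 55.2, 56.2 and 14.2 CPM in VAT and no count in spleen, at least 59.8-fold higher; it shares sequence with Hspa1b, and its values are uncertain. The heat shock element, here GAA, any 2 bases, TTC, any 2 bases and GAA, was in 4 of 15 promoters found (26.7%), against 0.662% of all. The holders were Hspd1, the only one of the 4 called higher, and Hsph1, Hspe1 and Chordc1 (-0.25 ± 0.17), which did not pass. It is shown for Hspd1, chosen after its values were seen, with 183, 153 and 144 CPM in VAT and 82.5, 121 and 102 CPM in spleen (0.65 ± 0.15, adjusted p = 0.00233). Hspd1 and Hspe1, the mitochondrial chaperone pair, are transcribed in opposite directions and their promoters share most of these bases (chr1:55087883-55088182, minus strand).
Hspd1: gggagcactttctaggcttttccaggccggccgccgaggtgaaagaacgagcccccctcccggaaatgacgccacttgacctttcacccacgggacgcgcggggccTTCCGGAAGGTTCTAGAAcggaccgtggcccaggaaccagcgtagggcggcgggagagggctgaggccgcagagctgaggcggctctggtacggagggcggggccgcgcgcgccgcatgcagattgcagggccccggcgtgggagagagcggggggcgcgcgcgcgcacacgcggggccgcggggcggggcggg
Its 2 overlapping matches span the bases from 144 to 127 before the Hspd1 start. Hspe1 itself, with 44.9 ± 10.1 CPM in VAT and 59 ± 5.49 CPM in spleen (SD, n = 3 each), did not pass (-0.39 ± 0.18, edgeR adjusted p = 0.103, or 0.0151 with library totals alone).

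In the NF-kB list 14 of 19 members were higher and 3 lower (median 0.78), against 22.5% and 18.6% of all genes tested. The inhibitor genes Nfkbie (0.50 ± 0.13) and Nfkbib (0.57 ± 0.15) were higher and lost their calls with library totals alone (adjusted p = 0.0774 and 0.0569). Nfkbid, a nuclear IκB protein gene, had 1055, 1082 and 1055 CPM in VAT and 45.6, 48.3 and 53.8 CPM in spleen (4.43 ± 0.10, adjusted p = 1.47e-14). Nfkbia, which encodes IκBα, had 5289, 4916 and 5068 CPM in VAT and 811, 799 and 810.5 CPM in spleen (2.66 ± 0.07, adjusted p = 1.09e-13). Tnfaip3, the gene of the brake A20, averaged 3983 ± 253 CPM in VAT and 73.5 ± 18.7 CPM in spleen (SD, n = 3 each; 5.75 ± 0.16). The 3 lower members, Relb, Tnip1 and Cd83, each lost their call under an alternative (adjusted p up to 0.101, 0.0564 and 0.252). The subunit genes differed less, with Rel at 1.56 ± 0.10, Nfkb1 at 0.96 ± 0.11 and Rela at 0.19 ± 0.15, the last not called. Gadd45b, an NF-kB and stress target, had 1850.1, 1617 and 1642 CPM in VAT and 54.8, 46.6 and 44.7 CPM in spleen (5.13 ± 0.11, adjusted p = 7.50e-15).

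Chemokine genes of the neutrophil-attracting family belonged to the 38 called genes with no count in any spleen library. Cxcl2 had 268, 235 and 182 CPM in VAT, at least 326-fold higher, Cxcl1 39.2, 36.5 and 46.1 CPM, at least 58-fold higher, and Cxcl3 29.3, 36.5 and 21 CPM, at least 41.3-fold higher. Cyp11a1, the enzyme that begins steroid hormone synthesis, had 55.2, 27.7 and 44.3 CPM in VAT, at least 60.6-fold higher. Conversely 9 called genes had no count in VAT, among them Cldn10 with 5.16, 10.9 and 11.8 CPM in spleen and Gjb2 with 8.14, 12 and 7.18 CPM in spleen, at least 13.2-fold and 12.9-fold lower in VAT. These 6 genes were chosen after their values were seen.

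The type I interferon effectors, antiviral genes switched on by the type I interferon receptor, were mostly lower in VAT. Of 43 tested members 33 were lower, 19 of them at least 2-fold, and the other 10 were not called (median -0.93). Usp18, which removes ISG15 from proteins and limits interferon signalling, had 10.4, 6.46 and 5.18 CPM in VAT and 128, 129 and 97.1 CPM in spleen (-4.01 ± 0.23, adjusted p = 1.22e-09). Slfn1, a schlafen family gene, had 37.4, 61 and 42.5 CPM in VAT and 284, 288 and 287 CPM in spleen (-2.60 ± 0.15, adjusted p = 1.94e-09). In both genes the highest VAT library was far below the lowest spleen library. Oas2, an antiviral RNA sensor gene, had 3 counts over the VAT libraries and 250 over the spleen libraries, a CPM ratio of 0.0120 (95% counting interval 0.00245 to 0.0354). The transcription factor genes Irf7 (-1.68 ± 0.19), Irf9 (-1.33 ± 0.11) and Stat2 (-0.75 ± 0.15) were lower too.

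The list was not uniform. Isg15, a ubiquitin-like protein and common marker of the response, was low in both tissues with 1.78, 1.52 and 2.33 CPM in VAT and 7.06, 5.66 and 4.85 CPM in spleen (-1.63 ± 0.50, adjusted p = 0.0154). Its call was lost without VAT library 1 (adjusted p = 0.0582), VAT library 2 (0.0715) or spleen library 1 (0.0585). Samd9l had 296 ± 6.47 CPM in VAT and 293 ± 49.5 CPM in spleen and Helz2 126 ± 17.4 CPM in VAT and 122 ± 4.64 CPM in spleen (SD, n = 3 each); with Isg20, Cmpk2, Eif2ak2, Mx1, Rsad2, Bst2, Lgals3bp and Slfn8 they made up the 10 that did not pass. Of the receptor subunits, Ifnar2 was lower (-0.87 ± 0.12), and Ifnar1 was lower by an amount that lost its call under most alternatives (-0.25 ± 0.09, adjusted p = 0.0396, and 0.0714 by DESeq2). Ifit3 shares sequence with Ifit3b and the Oas genes with each other, so their values are uncertain.

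The interferon-stimulated response element, here GAAA, any 2 bases and GAAA on either strand, was in 16 of 34 promoters found for this list (47.1%), against 3.99% of all genes in the table. It is shown for Isg15 (chr4:156200769-156201068, minus strand), with 3 overlapping matches, and for Ifi213, a DNA sensor family gene with 14, 18.2 and 17.1 CPM in VAT and 96.4, 94.5 and 90.1 CPM in spleen (-2.50 ± 0.17), taken after its values were seen (chr1:173599223-173599522, minus strand).
Isg15: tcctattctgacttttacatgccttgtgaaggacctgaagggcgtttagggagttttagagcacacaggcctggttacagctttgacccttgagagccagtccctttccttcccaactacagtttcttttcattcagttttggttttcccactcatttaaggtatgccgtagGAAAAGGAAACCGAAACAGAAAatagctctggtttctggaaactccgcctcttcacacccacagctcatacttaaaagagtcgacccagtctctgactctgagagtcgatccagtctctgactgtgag
Ifi213: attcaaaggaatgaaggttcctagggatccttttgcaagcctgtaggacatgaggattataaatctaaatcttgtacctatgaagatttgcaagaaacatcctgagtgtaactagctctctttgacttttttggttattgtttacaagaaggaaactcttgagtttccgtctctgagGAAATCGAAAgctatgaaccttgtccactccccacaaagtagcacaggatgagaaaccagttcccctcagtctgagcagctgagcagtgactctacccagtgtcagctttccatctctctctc
The 3 matches span the bases from 78 to 57 before the start in Isg15, and the single match of Ifi213 those from 73 to 64. The element was present both in genes that were lower in VAT (Ifit1, Oas3, Ifih1 and Stat2 among them) and in genes that did not pass, such as Rsad2, Bst2, Eif2ak2 and Slfn8.

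Antigen presentation and guanylate-binding genes, which answer to interferon-γ, were lower in 15 of 27 members and higher in 3 (median -0.33). The shares of all genes tested were 18.6% lower and 22.5% higher. Psmb9 and Psmb10, subunits of the immunoproteasome, changed by -1.01 ± 0.10 and -1.31 ± 0.12, with Psmb9 at 138, 134 and 135 CPM in VAT and 280.1, 255 and 287 CPM in spleen. Gbp2 (-1.39 ± 0.14) and the GTPase gene Irgm1 (-1.28 ± 0.13) were lower as well. Class I heavy chain genes differed among themselves. H2-D1 had 8402, 8127 and 8286 CPM in VAT and 5059, 5475 and 5768 CPM in spleen (0.61 ± 0.07, adjusted p = 3.50e-06), and H2-K1 was higher by 0.34 ± 0.07, a call lost with library totals alone (0.14, adjusted p = 0.0690). H2-Q6 was higher by 0.25 ± 0.08 (adjusted p = 0.0194), a call lost with library totals alone (0.672). H2-T22 (-0.38 ± 0.11, a call lost without VAT library 1, 0.0532) and H2-T23 (-0.49 ± 0.08) were lower, and H2-Q4 (0.39 ± 0.18) and H2-Q7 (-0.02 ± 0.08) did not pass. The summed level of the list was 29535 to 30019 CPM in VAT and 25531 to 26927 CPM in spleen, opposite in direction to the median. H2-K1 and H2-D1 share sequence and their values are uncertain.

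**Figure D4:**
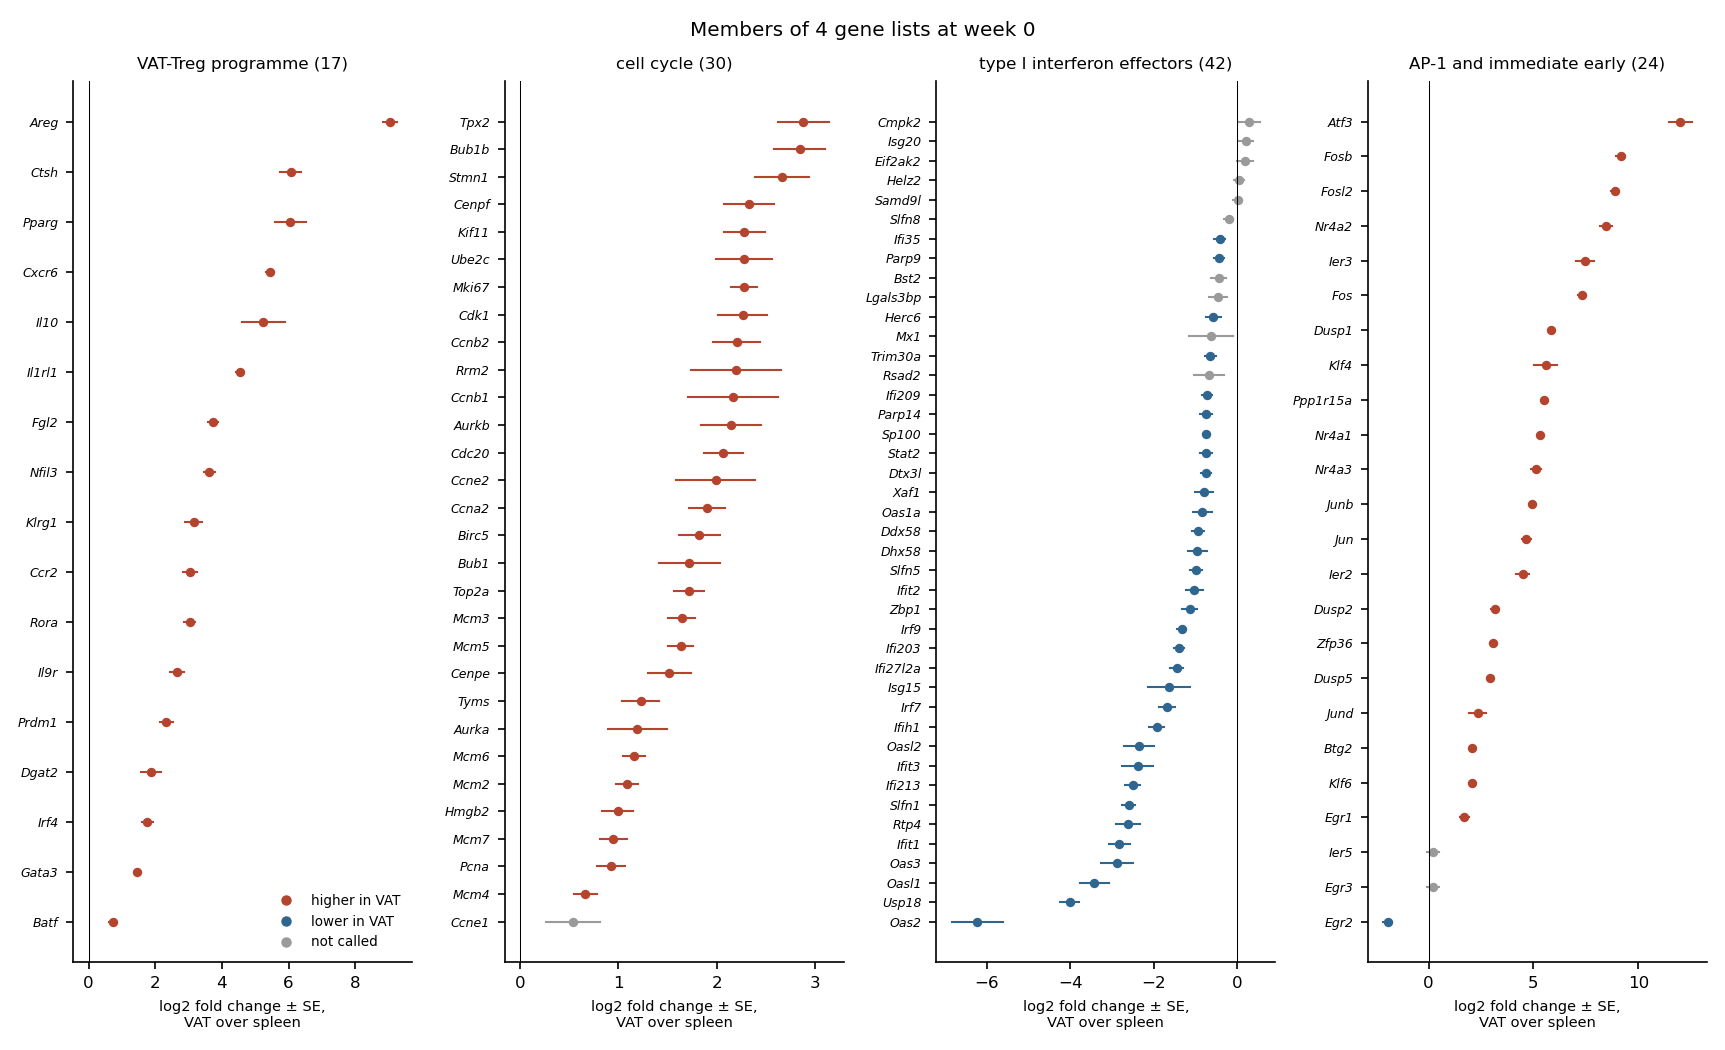
Log2 fold change ± SE, VAT over spleen, of tested members of 4 lists (17, 30, 42 and 24 genes drawn), in red where higher in VAT, blue where lower and grey where not called. All 17 fat Treg genes and 29 of 30 cell cycle genes are higher, 32 of the 42 interferon genes drawn are lower, and Egr2 is the only immediate early gene called lower; Atf3 has no spleen count, so its position depends on how zeros are treated.

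Several genes of lipid storage and phospholipid synthesis were much higher in VAT. Of 18 tested uptake and storage genes 9 were higher and 2 lower (median 0.35), against 22.5% and 18.6% of all genes tested. Dgat1, the last enzyme of triglyceride synthesis (chr15:76502015-76511953), had 815, 766 and 878 CPM in VAT and 31.2, 33.7 and 35.9 CPM in spleen (4.60 ± 0.11, adjusted p = 2.30e-14). Pcyt1a, which controls phosphatidylcholine synthesis, had 600.2, 615 and 646 CPM in VAT and 18.2, 13.9 and 18.2 CPM in spleen (5.21 ± 0.13, adjusted p = 2.45e-14). Hilpda, which blocks lipid droplet breakdown, had 464, 428 and 391 CPM in VAT and 26.6, 18.1 and 16 CPM in spleen (4.42 ± 0.16, adjusted p = 5.76e-12). The lipid droplet coat gene Plin2 was higher by 3.86 ± 0.17, while the lysosomal lipase gene Lipa was lower (-0.99 ± 0.16). G0s2, another inhibitor of lipid droplet breakdown, was lower, with 1.27, 0.950 and 0 CPM in VAT and 4.07, 5.01 and 2.53 CPM in spleen (-2.31 ± 0.73, adjusted p = 0.0183, and up to 0.0834 when a library was left out). The fatty acid transporter and binding genes Cd36 and Fabp4 were too low to test, and Slc27a1 (0.34 ± 0.28) and Acsl1 (-0.53 ± 0.34) did not pass.

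Fatty acid oxidation genes were higher in 11 of 22 tested members, and the other 11 were not called (median 0.40). Cpt1a, the gate of fatty acid entry into mitochondria, had 202, 195 and 208 CPM in VAT and 73.6, 77.9 and 90.3 CPM in spleen (1.32 ± 0.12, adjusted p = 3.08e-07), and the dehydrogenase genes Acadl (1.14 ± 0.11) and Hadh (1.13 ± 0.11) were higher by similar amounts. Sterol and fatty acid synthesis genes were higher in 11 of 29 and lower in 1 (median 0.42), against 22.5% and 18.6% of all genes tested. Hsd17b7, a gene of the late steps of cholesterol synthesis, averaged 45.1 ± 3.41 CPM in VAT and 16.4 ± 5.25 CPM in spleen (SD, n = 3 each; 1.45 ± 0.24, edgeR adjusted p = 0.000128), and Elovl6, a fatty acid elongase gene, changed by 1.07 ± 0.17. Scd2, a desaturase gene, was the lower one (-1.36 ± 0.24).

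Glycolysis and hypoxia genes were higher in 15 of 23 and lower in 1 (median 0.72). Pkm, the pyruvate kinase gene, had 1202, 1073 and 1095 CPM in VAT and 395, 494 and 489 CPM in spleen (1.29 ± 0.10, adjusted p = 2.99e-08). Egln3, an oxygen-sensing hydroxylase gene induced by low oxygen, had 135, 92.3 and 122 CPM in VAT and 11.9, 8.71 and 7.81 CPM in spleen (3.63 ± 0.21, adjusted p = 1.55e-09), and Ndrg1 changed by 2.33 ± 0.17. Hk2 (0.45 ± 0.63), Slc2a1 (0.20 ± 0.17) and Bnip3 (0.83 ± 0.38) did not pass. Oxidative phosphorylation genes gave no common direction: 4 of 30 were higher and 5 lower, both shares below those of all genes, with a median of 0.09 that was -0.11 with library totals alone. Sdhd, a subunit gene of succinate dehydrogenase, was the member with the smallest p (0.60 ± 0.11, adjusted p = 0.000507).

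Cell cycle genes were higher in VAT almost throughout. Of 30 members 29 were higher, 25 of them at least 2-fold (median 1.86), and Ccne1 was not called (0.54 ± 0.27, adjusted p = 0.126). Mki67, a marker of cycling cells, had 187, 206 and 179 CPM in VAT and 40.2, 40.3 and 37.8 CPM in spleen (2.28 ± 0.13, adjusted p = 1.11e-09). The replication helicase genes Mcm5, with 258, 285 and 255 CPM in VAT and 70.8, 95.6 and 90.5 CPM in spleen (1.63 ± 0.13), and Mcm3 (1.64 ± 0.13) were higher, and so were genes of mitosis such as Bub1b (2.84 ± 0.26) and Tpx2 (2.88 ± 0.26). Summed over the list the level was 3638 to 3796 CPM in VAT and 1178 to 1425 CPM in spleen.

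Members of the BCL2 family with the same function went opposite ways. In this family 4 of 12 tested members were higher and 2 lower (median 0.35), against 22.5% and 18.6% of all genes tested. Counts this small lie near those shares. Bcl2 had 40.5, 64.6 and 42 CPM in VAT and 399, 410.0 and 344 CPM in spleen (-2.96 ± 0.16, adjusted p = 1.24e-09), whereas Bcl2l1, the gene of BCL-XL, had 479.8, 422 and 551 CPM in VAT and 81.2, 71.4 and 76.4 CPM in spleen (2.67 ± 0.12, adjusted p = 5.05e-11). Both genes oppose cell death. Pmaip1, the gene of the pro-death protein NOXA, was higher (2.36 ± 0.20), Bcl2l11, the gene of BIM, was lower (-0.76 ± 0.23, adjusted p = 0.0154, and up to 0.0837 when a library was left out), and Mcl1 did not pass (-0.19 ± 0.13).

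The T cell receptor machinery was lower in 11 of 22 members and higher in 5 (median -0.27), against 18.6% and 22.5% of all genes tested. Lck, the kinase that starts receptor signalling, had 1046, 1082 and 1079 CPM in VAT and 1624, 1837 and 1740.4 CPM in spleen (-0.70 ± 0.08, adjusted p = 2.17e-06). The CD3 chain genes Cd3e (-0.96 ± 0.10), Cd3d (-0.80 ± 0.10) and Cd3g (-0.53 ± 0.09), the adaptor gene Lat (-0.78 ± 0.09), the kinase gene Txk (-1.78 ± 0.15) and the phosphatase gene Ptpn6 (-1.17 ± 0.10) were lower, while Cd4 did not pass (-0.11 ± 0.08), though it was called lower with library totals alone (adjusted p = 0.00494). Cd69, an early activation and tissue-retention marker, was higher, with 1716, 1457 and 1566 CPM in VAT and 256, 260.2 and 324 CPM in spleen (2.49 ± 0.10, adjusted p = 2.47e-11). The ζ chain gene Cd247 was higher by 0.23 ± 0.08 (adjusted p = 0.0317), a call lost under 10 alternatives and at an adjusted p of 0.861 with library totals alone. Of the constant segments, Trac had 3514, 2413 and 2311 CPM in VAT and 1339.8, 950.1 and 954 CPM in spleen (1.34 ± 0.21, adjusted p = 0.00185), whereas Trbc1 (-1.34 ± 0.09) and Trbc2 (-0.46 ± 0.15) were lower. Of the variable segments, Trbv2 took most of the Trbv counts, 82.9 to 88.1% in VAT and 87.7 to 97.0% in spleen. The Trav14 genes took 84.6 to 91.7% of Trav counts in VAT and 65.5 to 72.6% in spleen. Whether these are the segments of the transgenic receptor was not tested. The Trav14 genes are near-identical copies, and their single values are uncertain.

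Effector T cell structure genes were higher in 20 of 22 members, and the other 2 were not called (median 1.93). Lmna, which encodes the nuclear lamins A and C, had 844, 801 and 774 CPM in VAT and 42.1, 35.5 and 46.2 CPM in spleen (4.29 ± 0.11, adjusted p = 8.49e-14). The intermediate filament gene Vim had 9065, 7063 and 7508 CPM in VAT and 1289, 1227 and 1450.4 CPM in spleen (2.57 ± 0.10, adjusted p = 1.51e-11), and Ahnak, a giant scaffold protein gene, changed by 2.81 ± 0.10. The calcium-binding protein genes S100a4 (3.51 ± 0.30) and S100a6 (3.01 ± 0.18) and the galectin gene Lgals3 (4.41 ± 0.22) belonged to the same group. Anxa1, an annexin of anti-inflammatory signalling, had 588, 466 and 534 CPM in VAT and 20.6, 2.18 and 12.2 CPM in spleen (5.55 ± 0.56, adjusted p = 0.000690), with a wide spread in spleen.

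Genes induced by glucocorticoids were higher in 8 of 12 tested members and lower in 1 (median 1.79), but the list shares Dusp1, Il1r2, Cxcr4 and Per1 with other lists. The classical targets Tsc22d3 (0.26 ± 0.11, adjusted p = 0.0784) and Fkbp5 (0.58 ± 0.23, adjusted p = 0.0522) did not pass, with Fkbp5 just under the threshold by limma voom (0.0421) and called without spleen library 3 (0.0104). The receptor gene Nr3c1 was higher (1.42 ± 0.11), and Txnip, a regulator of glucose uptake, was lower (-1.33 ± 0.10). Of 18 tested clock genes 12 were higher and 2 lower (median 1.45), against 22.5% and 18.6% of all genes tested. The activator gene Arntl was higher (1.24 ± 0.13) while Clock did not pass (0.08 ± 0.18). Among the repressor genes Per1 (2.15 ± 0.15) and Nr1d1 (2.45 ± 0.45) were higher, and Cry2 (-0.86 ± 0.23) and Per2 were lower. Per2 had 1.53, 2.85 and 1.04 CPM in VAT and 6.51, 12.2 and 4.43 CPM in spleen (-2.04 ± 0.56, adjusted p = 0.00785), a call lost without spleen library 2 (0.0689).

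Ribosomal protein genes were lower in 66 of 79 and higher in 1 (median -0.66 with TMM, -0.66 with relative log, -0.77 with upper quartile and -0.87 with library totals scaling). Mitochondrially encoded protein genes were lower in 5 of 8 (median -0.76).

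The week 0 difference was then set beside the same contrast in the NCD groups of weeks 2, 4, 8 and 16, which share no library with week 0. Over those weeks 4016 of 14865 genes were higher in VAT (27%) and 3994 lower (26.9%). Of the 2725 genes higher at week 0 and tested there, 2380 were called higher again (87.3%) and 9 lower; of 2254 genes lower at week 0, 1988 were called lower again (88.2%). From the other side, the shared genes were 66.4% of those higher and 59.7% of those lower over the NCD weeks with a week 0 test, where 22 libraries stood against 6. With the NCD weeks averaged, the medians of most lists were alike in both sets. Cell cycle genes had 1.86 at week 0 and 1.90 over the NCD weeks, interferon effectors -0.93 and -1.04, and immediate early genes 4.80 and 5.11. Each median was taken over the members tested in that set. For some lists these were not the same, for example 18 and 21 lipid uptake and storage genes. The medians lay further apart for chemokine receptors, with 1.48 at week 0 and 0.80 over the NCD weeks, and for some other lists. Higher over the NCD weeks were helper T cell genes (1.40 and 1.95), the fat Treg programme (3.16 and 3.70) and lipid uptake and storage (0.35 and 0.70). Lower were glucocorticoid-induced (1.79 and 1.43) and NF-kB genes (0.78 and 0.44). Single NCD weeks differed: in the fit of 28 libraries cell cycle medians were 2.31, 2.36, 0.88 and 1.37 at weeks 2, 4, 8 and 16. Chemokine receptor medians were 1.42, 1.35, 0.66 and 0.19 at those weeks.

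**Figure D5:**
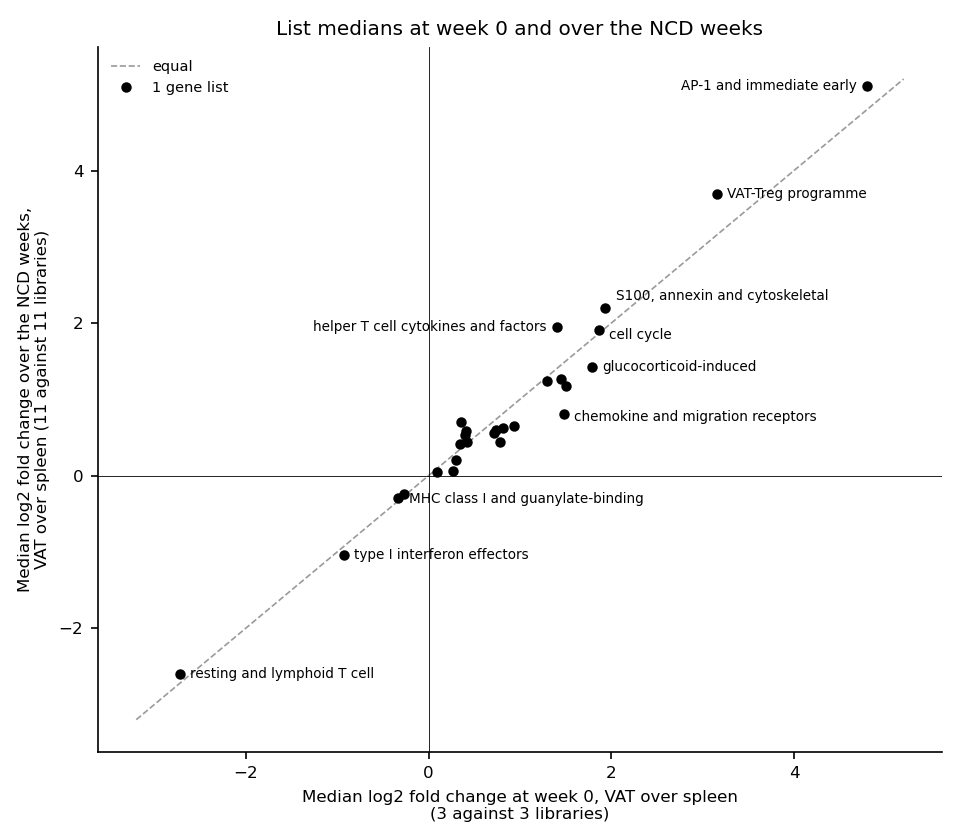
Median log2 fold change, VAT over spleen, of each of 27 gene lists at week 0 (x axis, 3 against 3 libraries) and over the NCD weeks (y axis, 11 against 11 libraries), with a dashed line of equality. Each median is over the members tested in that set, which differ between the sets for some lists. Lists run along the line from resting and lymphoid genes (-2.72 at week 0 and -2.60 over the NCD weeks) to immediate early genes (4.80 and 5.11).

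A direct test of the tissue difference at week 0 minus that over the NCD weeks called 4 of 14974 genes in edgeR (0.0267%), all with a higher value at week 0, and 144 genes with no filter on low counts. At an unadjusted p under 0.05 stood 1227 genes, against 748.7 expected with no difference. Prkch, a protein kinase C gene, had 216, 241 and 196 CPM in VAT and 149.8, 156 and 151 CPM in spleen at week 0 (0.52 ± 0.11, adjusted p = 0.00129, or 0.0843 with all 51 mouse libraries in the fit), and over the NCD weeks it was lower in VAT (-0.72 ± 0.11, adjusted p = 9.88e-06), a difference of 1.23 ± 0.22 (adjusted p = 0.0168). Its NCD means were 128, 144, 139 and 81 CPM in VAT and 166, 172, 228 and 232 CPM in spleen at weeks 2, 4, 8 and 16. Donson, a replication fork protein gene, had 98.2, 101 and 98.4 CPM in VAT and 25.2, 24.4 and 32.9 CPM in spleen at week 0 (1.85 ± 0.16), and 0.06 ± 0.14 over the NCD weeks, a difference of 1.79 ± 0.28 (adjusted p = 0.00572). Sys1, a Golgi traffic gene, had 99.7, 91.4 and 91.4 CPM in VAT and 32.3, 32.4 and 50.0 CPM in spleen at week 0 (1.29 ± 0.18), and -0.25 ± 0.13 over the NCD weeks, a difference of 1.54 ± 0.27 (adjusted p = 0.0145). The fourth was the pseudogene CT010467.2, with a difference of 1.34 ± 0.16 (adjusted p = 5.11e-05). The count rests on single libraries: it was 2 without VAT library 2, 1 without spleen library 1 or spleen library 2, and 12 without spleen library 3.

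Some list members had visibly different week 0 values without passing that test; they were chosen after their values were seen. Itgb7 differed between tissues by 2.84 on the log2 scale at week 0 and by 0.71, 2.53, 0.84 and -0.09 at weeks 2, 4, 8 and 16 (adjusted p of the difference 0.326). Il1r2 differed by 3.5 at week 0 and 2.62, 1.77, -0.14 and 0.98 at the later weeks (adjusted p = 0.311), and Lrrc32 by -0.91 at week 0 and -1.15, -1.39, -3.35 and -3.80 later (adjusted p = 0.149). Pparg, Areg and Il10 were at 6.05, 9.05 and 5.23 at week 0, and over the NCD weeks their log2 fold changes were 7.83 ± 0.45, 10.16 ± 0.45 and 7.11 ± 0.46. None of the 3 differences passed (adjusted p = 0.787, 0.865 and 0.631 by edgeR). Cd36, untested at week 0, was called higher over the NCD weeks (edgeR adjusted p = 1.60e-06), with VAT means of 3.30, 4.06, 3.88 and 4.12 CPM and spleen means of 0, 0, 0 and 0.0598 CPM at weeks 2, 4, 8 and 16. With spleen at or next to 0, no fold is given.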

How the data were processed

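RNA of sorted Tregs was measured by poly(A) RNA sequencing with 18 cycles of library PCR and paired reads of 38 bases, per the labels' protocols. The authors deposited raw read counts for each gene symbol, made with STAR 2.7.3a and featureCounts on mm10, per the submitters' processing notes. Annotation version, strandedness of counting and treatment of multimapping reads were not given in the sources used here, and values of near-identical, overlapping or antisense genes are therefore uncertain. Of 55011 symbols 96.2% matched GENCODE M21, which gave mm10 positions, and no column lacked a sample.

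Counts were analysed with edgeR 4.0.16 in R 4.3.3 (TMM scaling, filterByExpr, robust quasi-likelihood fit, Benjamini-Hochberg adjustment over all genes tested, threshold 0.05), with only the 6 week 0 libraries in the week 0 fit. The 22 NCD libraries were fitted in 8 groups with the weeks weighted equally, and the difference between both contrasts in 1 fit of 28 libraries. An SE is the log2 fold change divided by the square root of F. Replicate counts differed by 5.23 to 8.50 times the sampling noise (chi-square per degree of freedom), so no library was a duplicate.

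The libraries, the 37 gene lists (27 of Treg biology, 10 of other cell types) and the rules were chosen with earlier results of these data known. Genes named were the 12 higher and 12 lower with the smallest p (log2 fold change of at least 2, mean log2 CPM of at least 5, no overlap), the 3 called members per list and direction with the smallest p, the genes of the week 0 against NCD test, and Foxp3, Pparg, Il1rl1, Klrg1, Gata3, Areg, Il10, Ccr2, Cd36, Ccr7, Tcf7, Mki67, Isg15 and Junb. Other members were named as examples after their values were seen. Some genes that these rules name are not reported here, although their lists' counts include them. Promoter motifs are a description with no test.

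Alternatives were other scalings, no filter, the replicate number as a block, larger fits, DESeq2 1.42.0, limma 3.58.1 voom and leaving out each library, and, chosen after seeing the data, a fit without immediate early and heat shock genes. On simulated counts for week 0 (11930 genes) edgeR found 66 of 100 genes changed 2-fold and 88 of 100 changed 4-fold, with 8 false calls. For the difference from the NCD weeks (14885 genes) it found 45 and 80 of 100, with 1 false call. Only these genes were changed, up and down in equal number, all above a mean log2 CPM of 2. At week 0 41.1% of genes were called, so the simulation does not cover that share or the dependence on scaling.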

Additional observations from a re-analysis of the deposited data

Results flagged for a closer look

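The tissue difference (VAT over spleen) at week 0 differed from that over the NCD weeks in an edgeR interaction test for 4 genes, by 1.79 on the log2 scale for Donson, 1.54 for Sys1, 1.34 for CT010467.2 and 1.23 for Prkch. Each value is higher at week 0, and with no filter on low counts the test called 144 genes. At week 0 CT010467.2 had 178, 172 and 146 CPM in VAT and 77.9, 67.9 and 78.5 CPM in spleen (1.15 ± 0.13, adjusted p = 3.42e-06), and over the NCD weeks its log2 fold change was -0.19 ± 0.08. It is annotated as an unprocessed pseudogene, and its values are uncertain where reads match several copies. Groups of 3 libraries are too small for a test of a single library standing apart.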

How the results depend on the processing

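Of the 151 named genes tested at week 0, 127 kept their direction and their side of the threshold under all 15 alternatives, and of 540 tested list genes 362 did; no named gene turned its direction past the threshold, and the median of the oxidative phosphorylation genes, 0.09, was the only one of the 27 Treg list medians to change sign (-0.01 with upper quartile scaling, -0.11 with library totals). The count of called genes, 4982, was 4977 with relative log scaling, 5213 with no filter, 5205 with upper quartile scaling, 5585 with library totals, 4881 and 4757 with 51 and 28 libraries in the fit, 4828 with DESeq2 and 5206 with limma voom, and it ran from 4191 to 4828 when a library was left out. The count of genes lower in VAT, 2256, moved to 3516 with library totals. The 4 genes that differed between week 0 and the NCD weeks became 144 with no filter, and 1 to 12 when a week 0 library was left out; the cause was not tested. Counts over the NCD weeks stayed within 1.5 times. Same-numbered VAT and spleen libraries showed no shared deviation (correlations 0.000931, 0.0187 and -0.00138). With so few libraries per tissue this cannot tell whether same-numbered libraries came from the same mice. With the replicate number as a block 4738 genes were called at week 0 (2641 higher, 2097 lower), 7827 over the NCD weeks, and 4 in the difference. Depth limits genes near 0.6 to 0.8 CPM, the worth of 3 counts, where fold changes against spleen rest on few counts.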
